A study of Drosophila melanogaster with 35 samples.

Results

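Larval wings that expressed Cabut were compared with control larval wings of the same stage. Members were chosen by their labels alone: the 4 arrays titled Cbt L3 and the 4 titled control L3, which makes 8 of the 35 arrays of the series. All animals were Drosophila melanogaster that carried apterous-gal4, UAS-GFP and tubulin-Gal80temp.sens. Cbt animals carried UAS-Cabut in addition, and the matched control strain had no further UAS transgene. Each sample was total RNA from 10 dissected wings of larvae at the wandering stage of the last instar, labelled with Cy3 and hybridised to a 1-colour NimbleGen array. Animals were raised at 18 °C and moved to 28 °C for transgene expression, and the time spent at 28 °C before the larval dissection is not given in the sources used here. Other arrays served only for comparison: Cbt and control wings at 24h and at 36h after pupa formation (4 arrays each), and larval wings with UAS transgenes for E2F1 and DP, called E2F1DP L3 (3 arrays).

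Cabut is a zinc finger transcription factor of the Krüppel-like family, the fly relative of the mammalian TGF-beta-inducible early genes. It is known to be induced by ecdysone, to act in the repression of metabolic genes after sugar feeding, and to be needed for dorsal closure of the embryo. In this system Gal4 is made under the control of apterous, a selector gene of the dorsal wing compartment, and Gal80, made in all cells, blocks Gal4 until the temperature is raised. Whole wings were extracted, so each sample mixed RNA of dorsal cells, where the driver is active, with RNA of ventral cells. With such mixed samples, fewer cells of a type and less RNA per cell cannot be told apart. Each sample pooled wings of several animals, and the labels call the samples independent replicates. The comparison asks which transcripts differ when Cabut is overexpressed before the pupal stages at which wing cells leave the cell cycle.

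The values are log2 expression levels of 15473 FlyBase transcripts, and a difference of 1 is a 2-fold change. The files identify transcripts by ID only. A single gene could be tied to 17 of them, none of which passed the test at the larval stage, so the transcripts that changed are described by their values, by rank and by up to 2 IDs in each direction. The level of cbt itself, the cell type markers of the wing and the pathway lists were not analysed here for the same reason.

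The 8 arrays had medians between 9.60 and 9.80, and pairs of them correlated at r between 0.9794 and 0.9941 over all transcripts. The control arrays varied more than the Cbt arrays: the SD around the group mean was 0.238 to 0.348 on Cbt arrays and 0.28 to 0.392 on control arrays, and the median SD of a transcript was 0.187 in Cbt wings and 0.257 in control wings. Control replicates 2, 3 and 4 each correlated slightly better with the Cbt arrays than with the other control arrays. Cbt replicate 3 and control replicate 4 deviated from their group means together (r = 0.516 across transcripts), which no same-numbered pair did to that extent, so results are also given without both. No pair of arrays was a copy, the smallest root mean square difference being 0.373.

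A small set of transcripts differed between Cbt and control larval wings, and more of them were higher than lower in Cbt wings. The size and the members of the set depended on the fit, as given below. At an adjusted p under 0.05 in limma, 119 of 15473 transcripts (0.769%) differed. Of these, 78 (0.504% of all) were higher and 41 (0.265%) were lower in Cbt wings. An unadjusted p under 0.05 was reached by 1098. The rises ran between 0.55 and 5.75 on the log2 scale with a median of 1.26, and the falls between -4.53 and -0.48 with a median of -1.10. Over all transcripts the median difference was -0.01, with quartiles of -0.16 and 0.14 and a median standard error of 0.24. At least a 2-fold difference was seen in 56 of the rises and 23 of the falls, and at least a 4-fold difference in 17 and 9. The arrays of the 2 groups did not overlap for 74 of the 78 rises and 40 of the 41 falls, a property that 7.92% of all transcripts share. The calls were made on these same arrays, so the separation largely follows from the call and is no further evidence. The number of calls is 96 (59 higher and 37 lower) without Cbt replicate 3 and control replicate 4, a choice made after the data were seen. With the array slide as a factor it is 51 (37 higher and 14 lower), with the spread taken from the L3-stage arrays alone 220, and with array weights 458. Without Cbt replicate 2 the number of falls is 24.

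**Figure D1:**
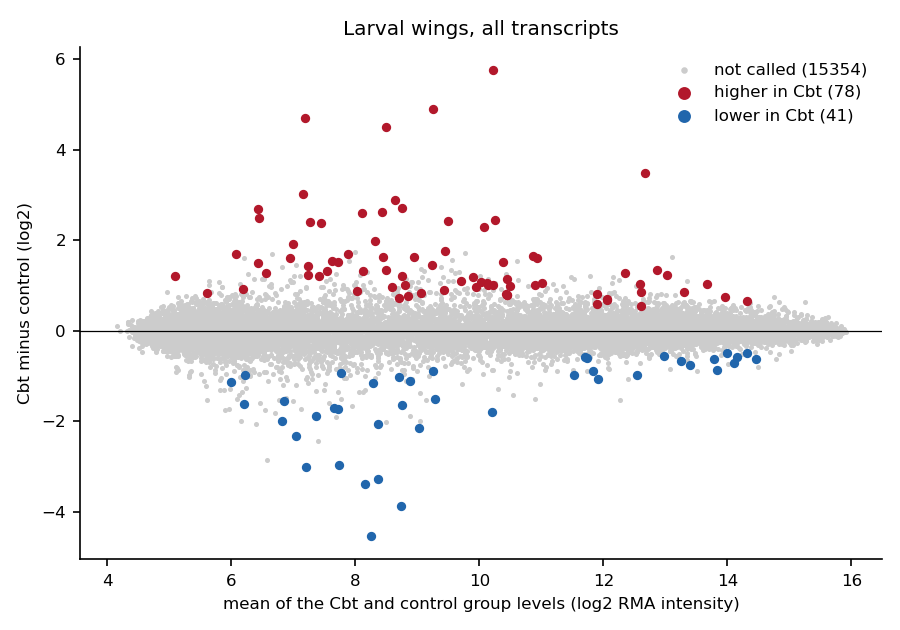
Log2 difference of Cbt L3 minus control L3 for all 15473 transcripts (limma) against the log2 mean level, with the 78 called higher and the 41 called lower marked. The quartiles of all transcripts are -0.16 and 0.14, and the calls extend to 5.75 above zero and -4.53 below it.

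The transcript with the largest rise was FBtr0077115. Its levels were 13.18, 13.00, 13.04 and 13.12 on the Cbt arrays, against 8.02, 7.28, 6.65 and 7.39 on the control arrays. Every Cbt array lay far above every control array, and the Cbt arrays differed among themselves much less than the control arrays did. The means were 13.09 ± 0.08 in Cbt wings and 7.34 ± 0.56 in control wings (SD, n = 4 each), a difference of 5.75 with a standard error of 0.38, or 53.8-fold (limma, adjusted p = 1.87e-11). FBtr0072912 came next, with 11.76, 11.36, 11.84 and 11.81 on the Cbt arrays and 6.94, 6.32, 6.41 and 7.53 on the control arrays. These groups did not overlap either, and Cbt replicate 2 was somewhat below its 3 companions. The means were 11.69 ± 0.23 in Cbt wings and 6.80 ± 0.56 in control wings, a difference of 4.89 with a standard error of 0.49 (29.7-fold, limma adjusted p = 1.44e-07).

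The third-largest rise was of a transcript near the dim end of the range in control wings: it had 9.80, 9.26, 9.38 and 9.72 on the Cbt arrays against 4.60, 5.18, 4.88 and 4.72 on the control arrays, a difference of 4.69. The fourth measured 9.97, 11.20, 10.78 and 11.03 in Cbt wings against 7.47, 5.79, 6.34 and 5.37 in control wings, a difference of 4.50. A further one was already bright in control wings: 14.36, 14.66, 14.31 and 14.30 in Cbt wings against 10.50, 11.55, 11.50 and 10.12 in control wings, a difference of 3.49. Strong rises thus occurred both in transcripts that were dim in control wings and in ones that were bright there. The transcripts at 4.69 and 3.49 lie in the same group of neighbouring IDs, described below, and need not be separate cases. Of the 78 that rose, 2 had a Cbt mean below 6.05, the lower quartile of all levels on these arrays, and 11 had a control mean below it. RMA gives no detection call, and near this end of the scale the size of a fold is not exact.

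FBtr0084544 had the steadiest of the large falls. It measured 6.80, 7.01, 6.54 and 6.85 in Cbt wings, against 11.03, 10.46, 10.60 and 10.63 in control wings. Both groups were tight and far apart, with means of 6.80 ± 0.20 in Cbt wings and 10.68 ± 0.24 in control wings (SD, n = 4 each). The difference was -3.88 with a standard error of 0.19, 14.7-fold lower in Cbt wings (limma, adjusted p = 1.49e-14). The fourth-largest fall was of a transcript at 7.28, 6.83, 5.86 and 6.98 in Cbt wings against 10.47, 10.04, 9.76 and 9.74 in control wings, a difference of -3.27. The next measured 5.41, 5.50, 5.14 and 6.72 in Cbt wings against 8.62, 9.13, 8.85 and 8.21 in control wings, a difference of -3.01. In each of these all control arrays stood above all Cbt arrays by a clear margin. Among the 41 falls, 7 had a Cbt mean below the lower quartile of 6.05, so that they are bounded by the bottom of the scale, and none of the 41 had a control mean below it.

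The largest fall by its mean, FBtr0079154, rested in good part on a single control array. Its levels were 7.08, 5.08, 5.42 and 6.39 on the Cbt arrays, against 9.80, 15.55, 7.80 and 8.93 on the control arrays. Control replicate 2 stood 5.75 above the next control array, and the other 3 control arrays were still above all Cbt arrays. The difference was -4.53 with a standard error of 0.85 (limma, adjusted p = 0.00345, 95% interval -6.27 to -2.79), and -2.85 without control replicate 2 (adjusted p = 0.000148). When the spread was estimated from the 8 compared arrays alone the adjusted p was 0.332, and with the L3-stage arrays alone it was 0.168. The third-largest fall had the same shape, with the Cbt arrays at 6.65, 6.15, 6.45 and 6.57, control replicate 2 at 14.31 and the other control arrays at 9.14, 8.45 and 7.47. In the tenth the Cbt arrays gave 5.94, 5.85, 5.34 and 6.15, and control replicate 1 stood out at 10.23 where the other control arrays gave 7.68, 6.54 and 6.79. In all, 4 of the 41 falls had 1 control array more than 1 log2 unit above the next, 2 by control replicate 1 and 2 by control replicate 2. Over all transcripts 3.72% have such a gap, and none of the 78 rises had a Cbt array that stood out in this way.

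**Figure D2:**
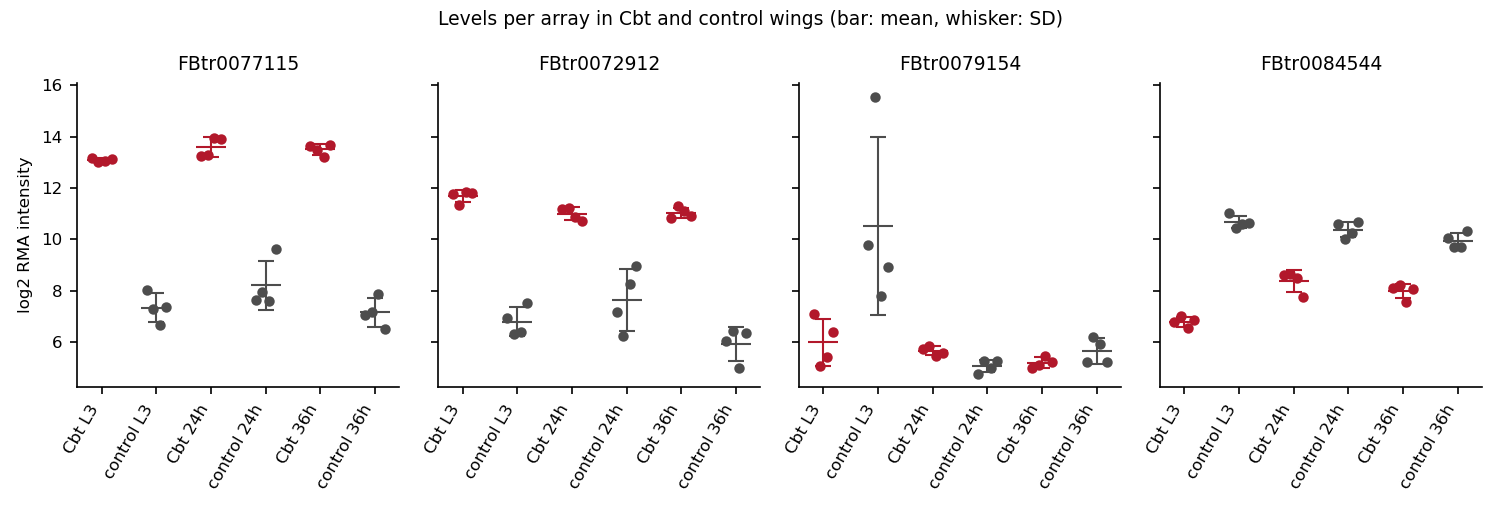
Log2 level on each array of the 4 transcripts given by ID, for Cbt and control wings at L3, 24h and 36h. Points are arrays, bars are group means and whiskers are SDs. FBtr0077115 and FBtr0072912 are high on all Cbt arrays, FBtr0084544 is low on all of them, and FBtr0079154 has 1 control array at 15.55.

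The 2 groups were mostly on different array slides, as the array identifiers give them. Control replicates 1 to 4 were on slides 1, 2, 3 and 4, and Cbt replicates 1 to 4 on slides 8, 1, 8 and 6. The series spans 9 slides, and only 1 held both groups at L3 (Cbt replicate 2 and control replicate 1). Between the other arrays of the 2 groups, differences of slide and of transgene cannot be told apart. Without these 2 arrays 70 transcripts were called, 47 higher and 23 lower. On the shared slide 44 of the 47 and 21 of the 23 differed in the same direction. That comparison rests on 1 array of each group, and the matching share over all transcripts was not analysed here. There the difference of Cbt replicate 2 and control replicate 1 was 4.98 for FBtr0077115, 4.42 for FBtr0072912 and -4.02 for FBtr0084544. These transcripts were chosen with both of these arrays included and for groups that do not overlap. The choice thus fixed the direction of the 3 values, and only their size is shown.

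Cbt and control wings at 24h and 36h come from other animals and other arrays, and so give separate measurements of the transcripts called in larvae, although the spread is estimated from all arrays together. The lines are the same at each stage. Any other difference between them would recur too, and cannot be told apart from the transgene. Most of the larval rises were also rises in the pupal wing. Of the 78, 49 (62.8%) were called higher at 24h, where 5.97% of all transcripts were (7.81% in either direction), and 48 (61.5%) at 36h, where 4.76% of all were (7.3% in either direction). A positive difference was found for 73 of the 78 at 24h and 67 at 36h, against 49% and 45.6% of all transcripts. Their median difference was 1.09 at 24h and 1.10 at 36h, against -0.01 and -0.03 over all transcripts. Both later stages called 37 of the 78, neither called 18, 24h alone called 12 and 36h alone 11.

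A smaller share of the falls was called again, and the shares of rises and falls were not tested against each other. Of the 41, 16 (39%) were called lower at 24h, where 1.84% of all transcripts were, and 14 (34.1%) at 36h, where 2.53% were. A negative difference was found for 36 at 24h and 37 at 36h, against 51% and 54.4% of all transcripts. The medians were -0.51 at 24h and -0.45 at 36h. Both stages called 11, neither called 22, 24h alone called 5 and 36h alone 3. Opposite calls were rare: 1 larval rise was called lower at 24h and none at 36h, and 1 larval fall was called higher at 36h and none at 24h.

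**Figure D3:**
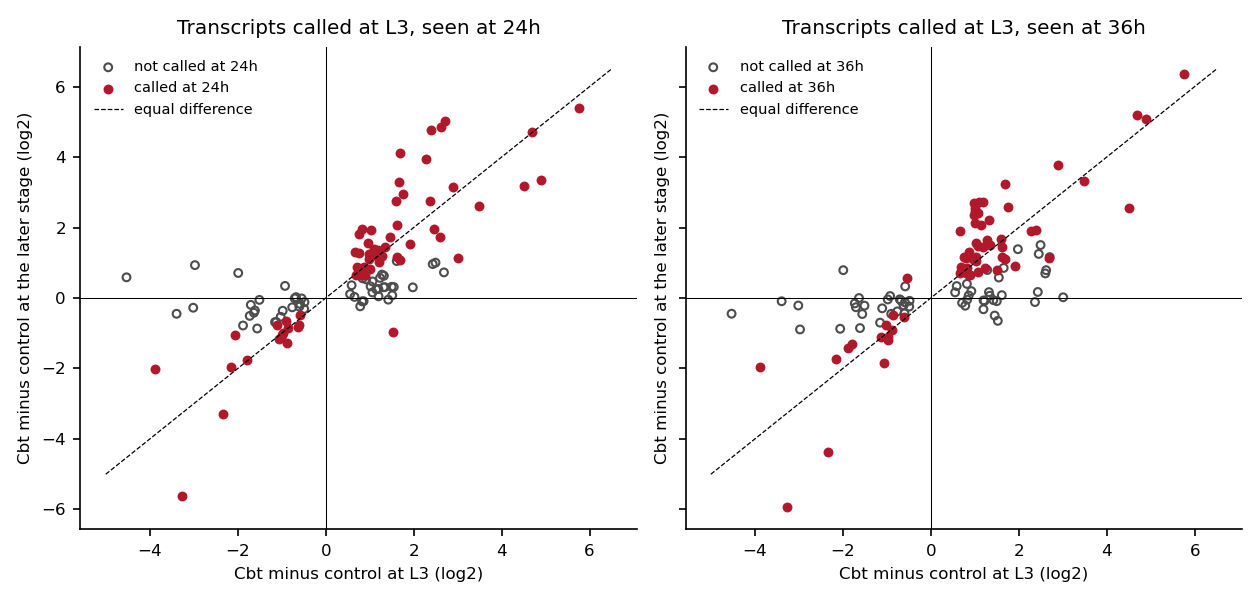
Log2 difference of Cbt minus control at 24h (left) and at 36h (right) against the same difference at L3 for the 119 transcripts called at L3, filled where the later stage called the transcript in either direction. The dashed line marks an equal difference. Of the 78 rises, 49 and 48 are called higher again, and of the 41 falls, 16 and 14 are called lower again.

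The 3 largest rises were called at every stage. FBtr0077115 was at 13.24, 13.29, 13.95 and 13.92 in Cbt wings at 24h, against 7.64, 7.95, 7.62 and 9.62 in control wings. At 36h it was at 13.64, 13.48, 13.22 and 13.66 in Cbt wings, against 7.07, 7.16, 7.89 and 6.51 in control wings. It was thus near or above 13 in Cbt wings and below 10 in control wings on every array, with differences of 5.75, 5.39 and 6.34 at L3, 24h and 36h. FBtr0072912 differed by 4.89, 3.35 and 5.09, and the transcript with the third-largest rise by 4.69, 4.71 and 5.20.

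A test of the difference between stages uses the larval arrays that also chose these transcripts, and so is not independent of the choice. By that test the effect at 24h was larger than at L3 for 6 of the 78 rises and smaller for 8, where 2.59% of all transcripts changed their effect in either direction. At 36h it was larger for 8 and smaller for 12, with 2.36% of all. For the falls the effect was more negative for 1 and less negative for 6 at 24h, and more negative for 1 and less negative for 7 at 36h. The sixth largest rise was called at L3 and 24h but not at 36h, with differences of 3.01, 1.15 and 0.02 at L3, 24h and 36h (limma, adjusted p of the difference in effect 0.00287 at 24h). Its level in Cbt wings averaged 8.66 at L3, against 5.65 in control wings, and 5.25 at 36h, against 5.23 in control wings. The eighth and the tenth largest rises were higher at 24h than in larvae by their values, at 2.70, 5.02 and 1.16 and at 2.62, 4.86 and 0.79 at L3, 24h and 36h, but the difference from L3 to 24h missed the threshold (adjusted p = 0.144 and 0.0818).

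FBtr0084544 remained lower at both later stages and by less. Its levels at 24h were 8.62, 8.64, 8.50 and 7.75 in Cbt wings, against 10.60, 10.01, 10.26 and 10.66 in control wings, and at 36h they were 8.10, 8.22, 7.58 and 8.07 against 10.07, 9.72, 9.71 and 10.33. The Cbt mean was 8.38 at 24h and 7.99 at 36h, above the larval 6.80. The control mean differed from the larval one by -0.29 at 24h (limma, adjusted p = 0.258) and by -0.72 at 36h (adjusted p = 0.00265). The difference was -3.88 at L3, -2.01 at 24h and -1.96 at 36h, and the effect was less negative by 1.87 at 24h and 1.92 at 36h (limma, adjusted p = 4.88e-05 and 4.68e-05). The transcript with the fourth-largest fall went the other way, with -3.27, -5.62 and -5.93, and both changes of the effect were called. Its Cbt mean was 6.74, 5.70 and 5.67 at the 3 stages, and its control mean was 10.00, 11.33 and 11.60.

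Some large larval falls were not called later, and these transcripts were low in the later control wings as well. FBtr0079154 averaged 5.66 in Cbt wings at 24h, against 5.08 in control wings, and 5.21 at 36h, against 5.65, with no call at either stage (differences 0.59 and -0.45, limma adjusted p = 0.749 and 0.907). The transcript at -3.01 in larvae averaged 5.40 in Cbt wings at 24h, against 5.67 in control wings, and 5.12 at 36h, against 5.33. In both, the control level was high at L3 alone.

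E2F1DP L3 wings share the control arrays with the comparison above, so their values are set beside it. FBtr0077115 averaged 6.71 in E2F1DP wings and FBtr0072912 6.0, both near the control level, and FBtr0084544 averaged 10.39, also near control. Against E2F1DP wings directly, Cbt wings were higher by 6.38 (95% interval 5.54 to 7.23) for FBtr0077115 and by 5.69 (4.62 to 6.77) for FBtr0072912, and differed by -3.59 (-4.02 to -3.16) for FBtr0084544. FBtr0079154 was low in both transgenic lines, at a mean of 5.99 in Cbt wings and 5.96 in E2F1DP wings, a difference of 0.04 (-1.84 to 1.91). The sixth-largest fall was similar, at 6.24 in Cbt wings, 5.77 in E2F1DP wings and 9.22 in control wings. In all, 320 transcripts (2.07%) differed between Cbt and E2F1DP larval wings, 205 (1.32%) higher and 115 (0.743%) lower in Cbt wings.

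Some called transcripts lay beside each other in the order of their IDs. Among transcripts tied to genes, the rank correlation (absolute) of ID order with the order of genes along the chromosome arm was 1 on 3R (13 transcripts), 0.927 on 2L (10), 0.745 on 2R (10) and 0.321 on 3L (7). Neighbouring IDs can thus belong to 1 gene or to adjacent genes, and transcripts of a gene can share exons and so a level. When called transcripts within 10 places were joined, the 119 formed 99 groups. Of these, 87 were single transcripts and 12 held the other 32. Each of the 12 groups changed in 1 direction, 10 higher and 2 lower. How many calls would have a called neighbour if calls were placed at random was not analysed here. The 119 calls need therefore not be 119 separate measurements, and how many genes they stand for was not analysed either.

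The largest group held 7 called transcripts among 8 successive ones. They rose by 0.98 to 1.19 at L3, with Cbt means of 10.25 to 10.99 and control means of 9.15 to 9.99. All 7 were called higher again at 24h, by 1.11 to 1.38, and at 36h, by 2.35 to 2.74. The effect at 36h was larger than in larvae for all 7, by 1.34 to 1.73 (limma, highest adjusted p = 0.00272). The 8th differed by 0.62 at L3 without a call, and the 20 flanking transcripts, uncalled by the way groups were formed, ranged between -0.46 and 0.93. A further group, found when calls within 25 places were joined, had 6 called among 25 transcripts, with rises of 1.69 to 4.69, and includes rises of 2.89, 3.49 and 4.69. Its other 19 transcripts ranged between -1.59 and 1.07, and the 20 flanking ones, again uncalled by construction, between -0.33 and 0.62. At 24h and at 36h 5 of its 6 were called higher. In the first group the members moved by nearly the same amount, and in the second by very different amounts.

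**Figure D4:**
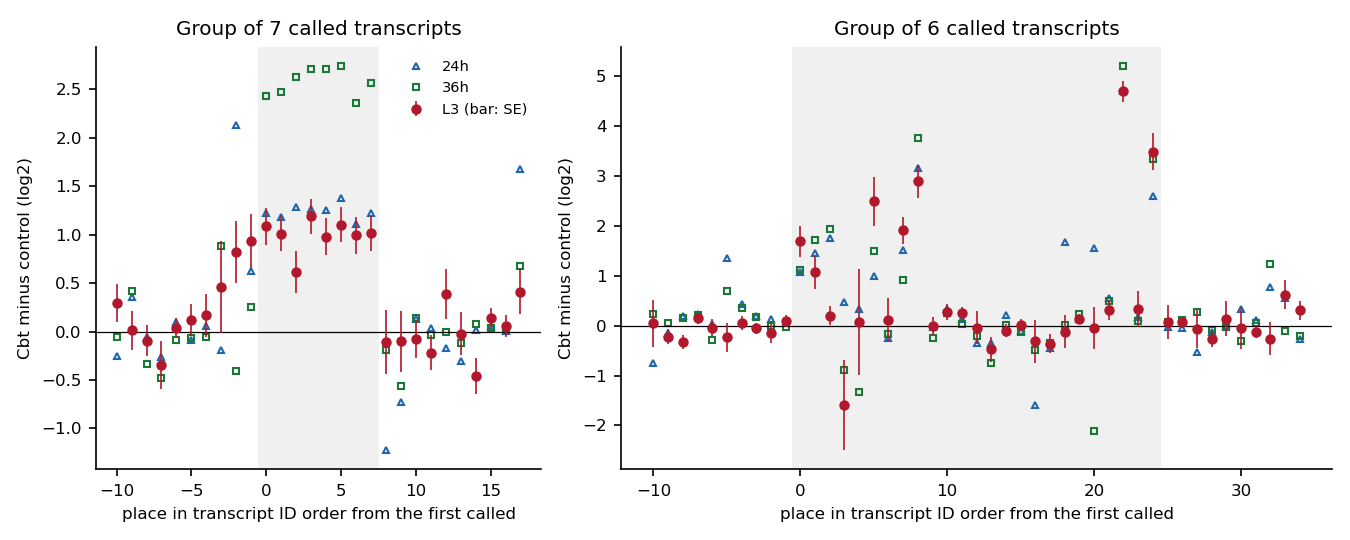
Log2 difference of Cbt L3 minus control L3 (with its standard error), and of the same lines at 24h and 36h, by place in the order of transcript IDs, for the 2 groups of neighbouring calls (shaded) and 10 transcripts on each side. The 7 calls of the first group lie between 0.98 and 1.19, and the 6 of the second between 1.69 and 4.69 with uncalled transcripts among them.

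None of the 17 transcripts tied to a single gene was called (limma, against 0.769% of all). An unadjusted p under 0.05 was reached by 3 of them, against 7.1% of all. Differences below 0 were found for 13 and above 0 for 4, with a median of -0.17, where 52.1% of all transcripts were below 0. For 15 of the 17 the 95% interval lay within 1 log2 unit of 0. The arrays of the 2 groups were apart for LanA and SuUR, 2 of 17, a property of 7.92% of all transcripts.

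LanA encodes the laminin alpha chain of the basement membrane. It had 13.29, 12.84, 13.08 and 13.03 on the Cbt arrays, against 14.08, 13.32, 13.58 and 13.52 on the control arrays. All control arrays were higher, and the gap between the groups was small. The means were 13.06 ± 0.19 in Cbt wings and 13.62 ± 0.32 in control wings (SD, n = 4 each), a difference of -0.57 (95% interval -0.99 to -0.14) that did not pass the test (limma, adjusted p = 0.361). SuUR, the suppressor of underreplication that slows replication in polyploid cells, had 10.49, 10.34, 10.29 and 10.38 in Cbt wings, against 11.21, 10.67, 10.73 and 11.04 in control wings. Here too the groups were apart, with means of 10.37 ± 0.08 in Cbt wings and 10.91 ± 0.26 in control wings, a difference of -0.54 (-1.06 to -0.02, adjusted p = 0.663). For alpha-Spec, the alpha chain of the membrane skeleton protein spectrin, the Cbt arrays gave 12.48, 12.36, 12.29 and 12.54 and the control arrays 13.33, 12.47, 12.64 and 12.93. The groups overlapped, and the difference was -0.42 (adjusted p = 0.681).

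Among genes of protein turnover and growth control, Uba1, the ubiquitin-activating enzyme, differed by -0.29, rdx, a Cul3 ligase adaptor of Hedgehog signalling, by -0.18, and Wdr24 and mio, subunits of the GATOR complex upstream of TOR, by -0.30 and -0.02. Among chromatin and nuclear genes, HDAC3, a histone deacetylase, differed by -0.17, kis, a chromatin remodeller, by -0.17, sle, a nucleolar protein, by -0.23 and His4r, the replacement histone H4, by 0.23. None of these passed the test. For SuUR, Uba1, Wdr24, HDAC3 and alpha-Spec, control replicates 1 and 4 were the 2 highest control arrays. Without control replicate 1 the difference was -0.07 for HDAC3, -0.26 for alpha-Spec, -0.44 for SuUR, -0.23 for Uba1 and -0.22 for Wdr24. Without control replicate 4 these were -0.11, -0.39, -0.50, -0.22 and -0.26 in the same order, none of them called. The remaining genes were Fatp1, a fatty acid transport protein, at 0.06, NaPi-III, a phosphate transporter, at 0.07 (95% interval -0.75 to 0.88), Dyrk3, a protein kinase, at -0.12, CG16974 at -0.03, fend at -0.41 and CG31178 at 0.33. CG31178 was dim in both groups and its interval was wide, at -0.69 to 1.34.

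Of these genes sle differed in its response between L3 and 24h. In larvae it measured 12.66, 12.57, 12.54 and 12.54 in Cbt wings, against 13.08, 12.65, 12.77 and 12.75 in control wings. At 24h it measured 12.03, 12.02, 12.03 and 12.04 in Cbt wings, against 10.94 to 11.25 in control wings. The Cbt arrays were lower or level in larvae and all higher at 24h. The difference at 24h was 0.97 (limma, adjusted p = 0.00114), and it exceeded that of the larva by 1.20 (adjusted p = 0.011). At 36h the difference was 0.33 (adjusted p = 0.429), and it exceeded that of the larva by 0.57 (adjusted p = 0.387), so neither was called. With slide as a factor the larval difference of sle was 0.039. Its change between stages was not analysed with slide. A further 27 transcripts were each tied to several genes, and are given as counts. None of them was called, where 0.769% of all transcripts were, 2 had an unadjusted p under 0.05, where 7.1% of all did, and their differences ranged between -0.58 and 0.93 with a median of 0.06.

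**Figure D5:**
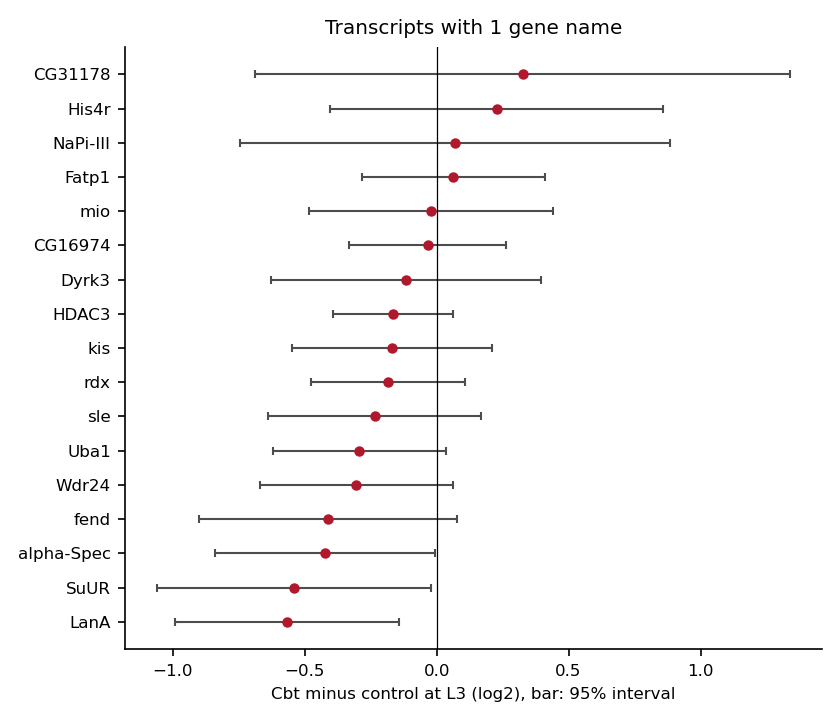
Log2 difference of Cbt L3 minus control L3 with its 95% interval (limma) for the 17 transcripts tied to a single gene, ordered by size. The differences lie between -0.57 for LanA and 0.33 for CG31178, and none passed the test.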

How the data were processed

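Per the labels, wing RNA was Cy3-labelled at a microarray facility by the NimbleGen protocol. The authors deposited 1 intensity per transcript and array on a linear scale, made with RMA per the submitters' processing notes. They also deposited a table of the same values as log2, which matched the log2 of the per-array files to within 5e-09. RMA corrects background, equalises the arrays and summarises probes (mostly 5 per transcript, at least 3). Its version, which arrays were run together, and the build are not given in the sources used here.

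The deposited log2 values were fitted in R 4.3.3 with limma 3.58.1 (lmFit and eBayes), with 9 group means over 35 arrays and 26 residual and 2.86 prior degrees of freedom. Calls used a Benjamini-Hochberg adjusted p under 0.05 over 15473 transcripts. The 95% intervals come from this fit. The procedure was tested on simulated data with independent noise and the same spread in every group. These data held no slide effect and no single outlying arrays, so the test does not bear on either. Alternatives covered the arrays entering the fit, slide, replicate number, scaling, dim transcripts, array weights, thresholds and leaving out arrays. The number of arrays limits the precision. Same-numbered Cbt and control arrays deviated from their group means with correlations of 0.162, 0.153, -0.242 and -0.13, so the numbers do not pair them.

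IDs were matched to the synonyms of the RefSeq gene table: 17 fell under 1 gene, 27 under several and 15429 were not found. Of 267 entries in 20 gene and marker lists 1 (His4r) was matched, so no list is reported. Genes to be named were cbt, E2f1 and Dp, the 10 largest rises and falls among called transcripts without overlap, and every transcript tied to 1 gene, whatever its value. Unnamed transcripts are given by at most 2 IDs in each direction. The members, lists and rules were chosen with earlier results of these data known. Python 3.11.15 with numpy 2.4.6, pandas 2.3.3 and matplotlib 3.10.9 matched names and drew figures.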

Additional observations from a re-analysis of the deposited data

Results flagged for a closer look

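For FBtr0072912, Cbt replicate 2 lay at 11.36 and apart from the other 3 Cbt arrays, at 11.76 to 11.84. It was the only such array in 42 groups of 4 that were looked at, where chance alone gives about 1 in 20. All 4 Cbt arrays were above all control arrays.

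Among the transcripts given by ID or gene name, the Cabut effect differed between stages for 3. FBtr0079154 and FBtr0084544 were chosen by their larval difference, so for them the test is not independent of the choice. For FBtr0079154 the effect at 24h minus that at L3 was 5.12 (limma, adjusted p = 0.0126), with control replicate 2 of the larva at 15.55. Its change at 36h, 4.08, was not called (limma, adjusted p = 0.0686). For FBtr0084544 the effect at 24h was 1.87 and at 36h 1.92 above that at L3. For sle the effect at 24h was 1.20 above that at L3 (limma, adjusted p = 0.011), and the change at 36h, 0.57, was not called (adjusted p = 0.387). For none of the 3 was the change between stages analysed with slide as a factor.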

How the results depend on the processing

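The 3 transcripts FBtr0077115, FBtr0072912 and FBtr0084544 kept their direction and call under all 22 alternatives, at 5.49 to 5.98, 4.68 to 5.14 and -3.95 to -3.70. FBtr0079154 ran between -5.44 and -2.85 and lost its call with the 8 compared arrays alone (difference -4.53, adjusted p = 0.332) and with the L3-stage arrays alone (-4.53, adjusted p = 0.168).

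The number of transcripts called at L3 was 119 (78 higher and 41 lower). It was 220 (147 and 73) with the L3-stage arrays alone, 51 (37 and 14) with slide as a factor, 458 (254 and 204) with array weights, 71 (51 and 20) at an adjusted p under 0.01, and 79 (56 and 23) with a 2-fold minimum. Leaving out 1 array at a time gave 80 to 114 (56 to 72 higher, 24 to 49 lower), the fewest falls without Cbt replicate 2. With the replicate number as a block it was 133 (85 and 48). With the compared arrays alone 76 were called higher and 33 lower. The transcripts called were not always the same ones. Of the 78 rises and 41 falls, 49 and 22 were still called with the compared arrays alone. With the L3-stage arrays alone 61 and 27 were still called, and with slide as a factor 35 and 14. With array weights all 78 and 41 were still called. Calls against E2F1DP larval wings (320) became 1143 with the compared arrays alone, 731 with the L3-stage arrays, 98 with slide, 2089 with array weights, 489 without the 24h arrays that stand apart, 177 at 0.01 and 204 with a 2-fold minimum, and 226 to 319 leaving out 1 array. Calls of a changed effect at 24h (401) became 65 with slide, 669 with array weights and 228 at 0.01, and 308 to 399 leaving out 1 array. At 36h (365) they became 122, 743 and 189, and 290 to 395. Of the larval rises, 49 to 50 were called again at 24h and 45 to 47 at 36h leaving out 1 array. For the falls the ranges were 15 to 17 and 14 to 16. These ranges could hardly move. The lists were those of the main fit, and the arrays left out were larval. Larval arrays enter the later comparisons only through the shared spread. With slide as a factor 8 falls were called again at 36h, and with a 2-fold minimum 9 at 24h. The cause of these shifts was not tested.

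Differences near 0 changed sign without a call. With slide as a factor CG16974 was at 0.021, Dyrk3 at 0.11, mio at 0.13 and sle at 0.039. With array weights His4r was at -0.021 and mio at 0.024. Leaving out 1 array at a time, CG16974 ran from -0.088 (without Cbt replicate 3) to 0.038 (without Cbt replicate 2), Dyrk3 from -0.23 (without control replicate 1) to 0.012 (without control replicate 3), His4r from -0.032 (without control replicate 1) to 0.398 (without control replicate 3) and mio from -0.073 (without Cbt replicate 1) to 0.018 (without Cbt replicate 3). Without both arrays that deviated together, mio was at 0.054.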
